A study of Mus musculus with 6 samples.

Results

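The transcripts described here encode the core of transforming growth factor β (TGF-β) signalling: the ligands Tgfb1, Tgfb2 and Tgfb3, the receptors Tgfbr1 and Tgfbr2, and the intracellular factors Smad2, Smad3 and Smad4. They were selected by name, are 8 of the 770 genes on the panel, and all 8 were among the 548 genes tested, those averaging at least 20 raw counts across samples. The samples were tumours of mice of an engineered melanoma model. Both groups carry the same engineered alleles, an activated Braf among them, and in both the tumours were started at 10 weeks of age with 4-hydroxy-tamoxifen applied to shaved skin. The 4'-BR group (n = 3) was treated with 4′-bromo-resveratrol, a brominated analogue of resveratrol. The dose was 30 mg/kg, injected into the peritoneum 3 times weekly over 5 weeks. The Control group (n = 3) is set apart by its titles alone: the treatment text is the same for all 6 samples, and the labels do not state what Control mice received. They also leave out the promoter behind the tamoxifen-dependent recombinase and whether every sample was a different mouse, so the spread that the p-values below rest on is one between samples and may be technical. The comparison asks how 4'-BR altered expression of these genes in the tumours.

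As background, TGF-β ligands are secreted in a latent form bound to their own propeptide and are stored in the extracellular matrix until integrins, proteases or thrombospondin-1 release them. The active dimer binds the type II receptor, which phosphorylates the type I receptor, which in turn phosphorylates Smad2 and Smad3. These join Smad4 and enter the nucleus, where they raise or lower target genes such as those of collagens and fibronectin. In skin tumours the pathway is known for restraining the growth of epithelial cells and melanocytes, for activating fibroblasts and for damping T cell responses. Much of its control lies in release of ligand and phosphorylation, which transcript counts do not measure.

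The ligand genes Tgfb1 and Tgfb2, with log2 fold changes of -0.21 and -0.22 in these tumours, differ in the sequence just before their start sites. Both are shown, and no promoter window was available for Tgfb3. The letters are the 130 bases before the RefSeq start on assembly GRCm38.p6, 5′ to 3′ on the gene's strand. Capitals mark 3 of the motifs searched on both strands. Also searched, and not marked, were CAGAC and TGANTCA. The GC box is spelled GGGCGG. One arm of the element bound by CREB and ATF factors is spelled TGACG. The third motif, the box bound by the TATA-binding protein, is spelled TATAAA. No 2 of the marked matches overlap. The Tgfb2 window lies inside the longer span that RefSeq gives the gene.
Tgfb1 (chr7:25686872-25687001, + strand): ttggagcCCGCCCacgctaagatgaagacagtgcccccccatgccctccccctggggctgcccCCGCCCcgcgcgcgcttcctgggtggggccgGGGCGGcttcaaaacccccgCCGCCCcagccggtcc
Tgfb2 (chr1:186705990-186706119, - strand): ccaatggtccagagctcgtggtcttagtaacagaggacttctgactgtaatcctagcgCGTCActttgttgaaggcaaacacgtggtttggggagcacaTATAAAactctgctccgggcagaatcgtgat
Over the 250 bases before the start, Tgfb1 held 5 matches to GGGCGG and none to TATAAA or TGACG, at 75.2% G and C. Tgfb2 held 1 match to TATAAA, which begins 31 bases before the start, 1 to TGACG, 72 bases before it, and none to GGGCGG, at 53.6% G and C. Among all 32851 RefSeq promoter windows of that length, 32.7% held GGGCGG, 12.4% TATAAA and 17.8% TGACG. The other windows matched were those of Smad3, with 2 matches to GGGCGG, Tgfbr2, with none to any of the 3, and Tgfbr1, with 2 to GGGCGG at its first start and none of the 3 at a second start inside the gene. The unmarked CAGAC had 2 matches in the 250 bases of Tgfb2, 1 in those of Tgfbr2 and 1 at the second Tgfbr1 start. It had none in the other windows matched, and 42.2% of all windows held it. TGANTCA had no match in any of them, beside 6.75% of all windows. A match describes letters and is not evidence of a bound site.

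Counts are of single RNA molecules hybridised to barcoded probes, without amplification. Totals over the 770 genes were lower in 4'-BR samples, at 118221 to 254862, than in Control samples, at 322485 to 472402, and each count was therefore divided by a sample factor from the geometric mean of 20 housekeeping probes. All 8 genes exceeded the mean plus 2 SD of the 8 negative probes in all 6 samples, the lowest raw count among them being 40 for Tgfb2 in 4'-BR 3. Probes bind with unlike efficiency, so levels were compared between samples and not between genes. The melanoma label could not be settled from these counts, since the panel names only 2 of 9 melanocyte markers looked for. S100b averaged 523 ± 265 scaled counts in 4'-BR and 516 ± 86.6 in Control samples, and Kit 49.9 ± 35.4 and 24.1 ± 8.78 (SD, n = 3 each). The Kit mean in 4'-BR was set by 4'-BR 2, at 90.2 against 23.9 in 4'-BR 1 and 35.6 in 4'-BR 3. The tumours are bulk tissue, in which fewer cells of a type and less RNA per cell cannot be told apart. 4'-BR 3 had the lowest total and the lowest scaled count of all 6 samples for 5 of the 8 genes, whereas 4'-BR 2 lay near the Control mean, with a median deviation over the 8 genes of 0.02 on the log2 scale against -0.25 in 4'-BR 1 and -0.39 in 4'-BR 3. The positive control probes of 4'-BR 3 had a geometric mean of 384, against 614 to 757 in the other samples. Its scaled mean of the negative probes was the highest, at 7.50 against 3.46 to 5.83. The part of these differences in the values of 4'-BR 3 was not tested.

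None of the 8 genes passed the test. Of the fold changes, 7 were slightly lower and 1, Smad2, slightly higher in 4'-BR tumours, between -0.27 and 0.28 on the log2 scale. The median was -0.21, beside -0.04 over all 548 genes tested, of which 52.7% were below 0. In edgeR's quasi-likelihood test with Benjamini-Hochberg adjustment over 548 genes the adjusted p was 0.399 to 0.804. At an unadjusted p under 0.05 the count was also 0, as it was in DESeq2 and in limma under either threshold. Of all genes tested, 38 (6.93%) passed at an adjusted p under 0.05, 7 of them higher (1.28%) and 31 lower (5.66%), and 128 (23.4%) had an unadjusted p under 0.05. In 167 (30.5%) the 3 samples of 1 group lay wholly on 1 side of the other, which held for 0 of the 8. The largest fold change of the 8, in either direction, was matched or undercut by 47.3% of all genes tested. In this housekeeping-scaled fit the 95% intervals reached from -0.74, for Tgfb3, to 0.73, for Smad2. A halving or a doubling lay outside the interval of each gene there, and changes of about 1.5-fold did not lie outside all of them. This holds for that scaling only: with positive control scaling the log2 fold change of Tgfb3 was -0.92, and intervals under it are not given.

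**Figure D1:**
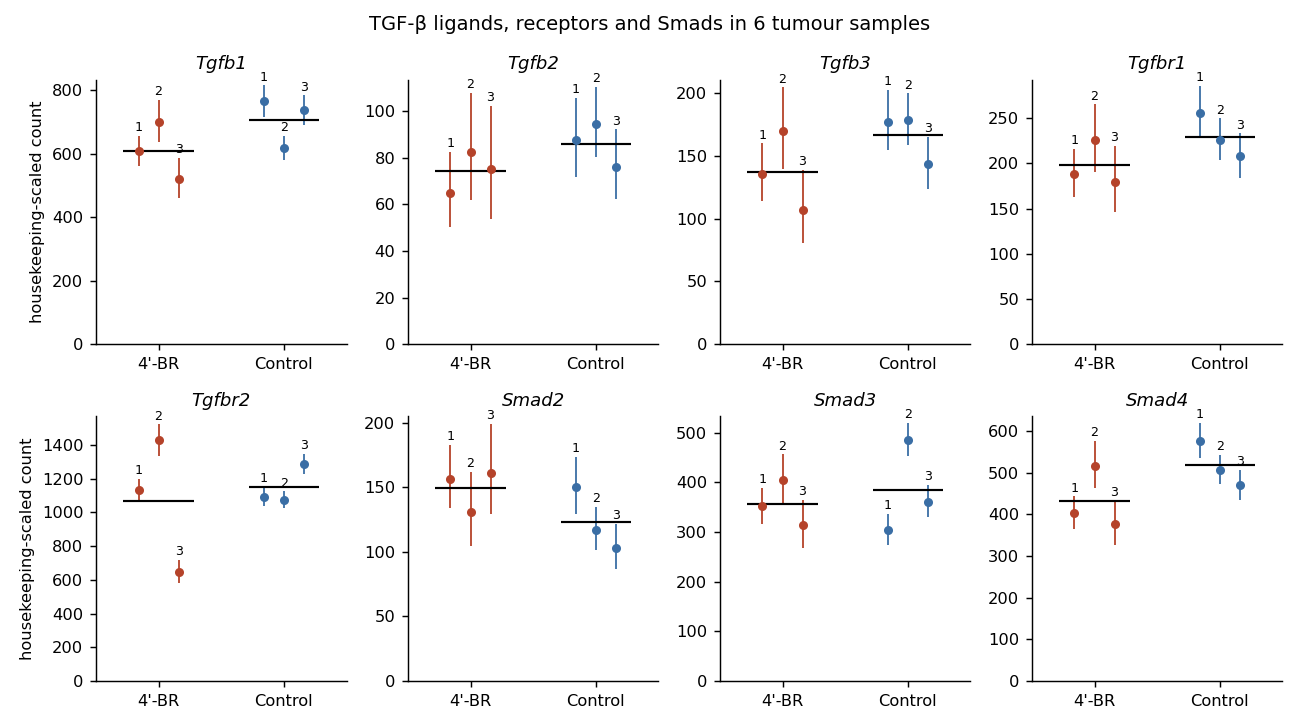
Housekeeping-scaled counts of each gene (vertical axes from 0) in the 3 4'-BR samples, on the left, and the 3 Control samples, on the right; numbers are replicate numbers, bars are exact 95% Poisson intervals for counting error only, and black lines are group means. The groups overlap in all 8 panels, with 4'-BR 3 lowest for Tgfb1, Tgfb3, Tgfbr1, Tgfbr2 and Smad4.

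Among the ligands, Tgfb1 encodes the form made by most immune and stromal cells. It stood at 609, 701 and 521 scaled counts in 4'-BR 1 to 3, against 765, 617 and 737 in Control 1 to 3. Samples 4'-BR 1 and 3 were below every Control sample, and 4'-BR 2 was above Control 2. The means were 611 ± 90.0 and 707 ± 78.6 (SD, n = 3 each), with a log2 fold change of -0.21 (SE 0.17, 95% interval -0.59 to 0.17, edgeR adjusted p = 0.472). Tgfb2, a ligand that needs the co-receptor betaglycan for efficient binding to the type II receptor, had 65.0, 82.4 and 75.0 scaled counts in the 4'-BR samples, against 87.4, 94.6 and 76.1 in the Control samples. Samples 4'-BR 1 and 3 were below every Control sample here too, 4'-BR 3 by little, and 4'-BR 2 was above Control 3. Its raw counts of 40 to 159 make it the least precisely counted of the 8, with an exact Poisson interval of 53.6 to 102 scaled counts in 4'-BR 3, and its log2 fold change was -0.22 (SE 0.21, adjusted p = 0.531). Tgfb3, known for its part in palate closure and wound repair, was at 136, 169.5 and 107 scaled counts in 4'-BR samples and at 177, 178 and 143 in Control samples. Again 4'-BR 1 and 3 lay below all Control samples and 4'-BR 2 did not (log2 fold change -0.27, SE 0.21, adjusted p = 0.45).

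Tgfbr1 encodes the type I receptor kinase ALK5. Its scaled counts were 188, 225 and 180.1 in 4'-BR tumours, against 256, 226 and 208 in Control tumours. The pattern was that of the 3 ligands, with 2 of 3 4'-BR samples under the whole Control range (log2 fold change -0.21, SE 0.17, adjusted p = 0.471). Tgfbr2, the ligand-binding type II receptor kinase, varied most among 4'-BR samples. It had 1132, 1428 and 647 scaled counts in them, against 1094, 1075 and 1287 in Control samples. The 4'-BR group thus held both the highest and the lowest of the 6 values, and its coefficient of variation was 36.9% against 10.2% in the Control group, where counting error alone gives at most 5.38% in any of the 6 samples. The log2 fold change was -0.11 (SE 0.25, adjusted p = 0.804), and it was 0.15 without 4'-BR 3 (adjusted p = 0.646), so 1 sample set its direction. Without 4'-BR 2 it was -0.37 (adjusted p = 0.418). The 7 measured endothelial markers summed to 2025, 2398 and 1094 scaled counts in the 4'-BR samples, again lowest in 4'-BR 3, against 2663, 2650.2 and 2461 in the Control samples. Most of that sum was Mcam, at 1233, 1311 and 591 in the 4'-BR samples. Pecam1, Cdh5, Tek and Eng had the same order over the 4'-BR samples, whereas Kdr was highest and Tie1 lowest in 4'-BR 1. Like the endothelial sum, the fibroblast, macrophage and melanocyte marker sums were lowest in 4'-BR 3 and highest in 4'-BR 2 within the 4'-BR group. Other lists differed: within that group the T cell sum was highest in 4'-BR 3, at 315. The neutrophil and epithelial sums were lowest in 4'-BR 2, at 1157 and 4651, and the platelet sum was highest in 4'-BR 1, at 115. Among Control samples Tgfbr2 was highest in Control 3, where the endothelial sum was lowest. The part of any of these cell types in the Tgfbr2 value was not tested.

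Smad2, one of the receptor-activated Smads, was the only one of the 8 with a positive fold change. It stood at 157, 131 and 161 scaled counts in 4'-BR samples, against 150.1, 117 and 103 in Control samples. Samples 4'-BR 1 and 3 were above every Control sample, and 4'-BR 2 was below Control 1. The means of 149.6 ± 16.6 and 123 ± 24.1 gave a log2 fold change of 0.28 (SE 0.20, 95% interval -0.17 to 0.73, adjusted p = 0.431). Smad3, the receptor-activated Smad that binds DNA directly, was at 352, 404 and 313 scaled counts in 4'-BR samples and at 304, 486 and 361 in Control samples. Both extremes were Control samples, the group's coefficient of variation was 24.2% against 12.8% in 4'-BR samples, and the log2 fold change of -0.11 (SE 0.20, adjusted p = 0.744) was 0.10 without Control 2 (adjusted p = 0.789). Smad4, the shared partner of both, had 402, 516 and 377 scaled counts in 4'-BR tumours, against 576, 506 and 469 in Control tumours. It had the lowest adjusted p of the 8 (log2 fold change -0.26, SE 0.17, adjusted p = 0.399), with 4'-BR 2 inside the Control range.

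Ratios of 2 genes within a sample do not depend on how samples are scaled, and 7 were compared with an exact two-sided permutation test, which cannot go below p = 0.1 with 3 against 3 samples. The largest difference was that of Smad2 over Smad4. The ratio of raw counts was 0.39, 0.253 and 0.428 in 4'-BR samples, against 0.261, 0.231 and 0.22 in Control samples. It was highest in 4'-BR 3 and 1, while 4'-BR 2 fell just under Control 1, and the ratio was on average 1.47 times as high in 4'-BR tumours (log2 difference 0.56, exact p = 0.2, adjusted p = 1 over 7 ratios). Smad3 over Smad2 was lower, by 0.38 on the log2 scale, with ratios of 2.24, 3.10 and 1.94 in 4'-BR samples, against 2.03, 4.15 and 3.504 in Control samples (exact p = 0.3). The remaining 5 log2 differences were smaller. They were 0.18 for Smad3 over Smad4, 0.04 for Tgfbr2 over Tgfbr1, -0.08 for Tgfb3 over Tgfb1 and over Tgfb2, and 0.00 for Tgfb2 over Tgfb1, with exact p from 0.7 to 1. The means of the ligand ratios thus moved little, but with SDs of up to 0.31 on the log2 scale the samples do not show that the 3 ligands kept their proportions.

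**Figure D2:**
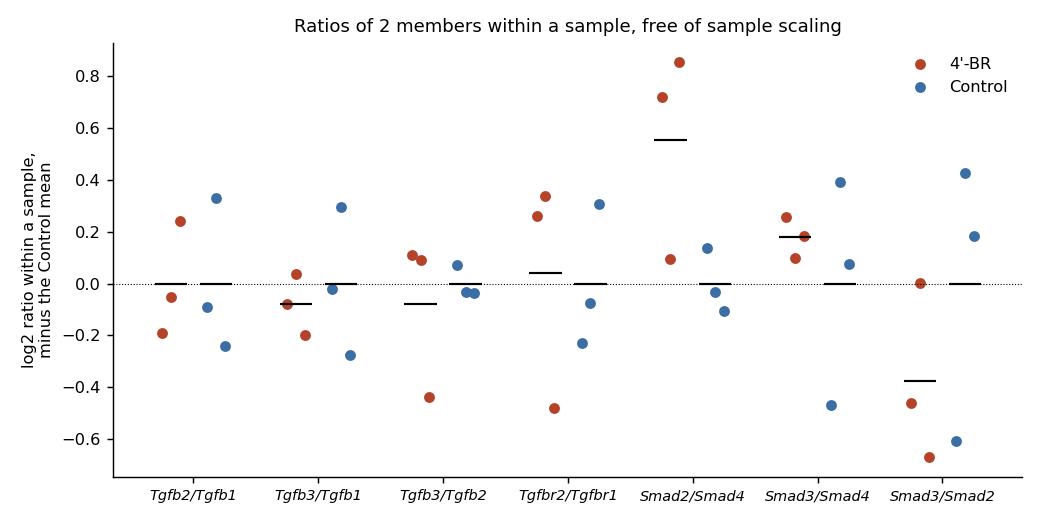
Log2 ratio of 2 genes within each sample minus the Control mean of that ratio (vertical axis) for 7 pairs (horizontal axis), with 4'-BR samples in red, left, Control samples in blue, right, and group means as black lines. Smad2/Smad4 has the largest shift, 0.56, carried by 4'-BR 1 and 3, and the groups overlap in every pair.

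The genes most like each of the 8 were sought by Pearson's r of log2 scaled counts over the 6 samples among the 547 other genes tested. These r describe 6 points that share their scaling factor, and with so many genes some high values are to be found for any profile. For Tgfbr1 and for Smad4 the most similar of the 547 was in each case the other of the pair (r = 0.99, Spearman's rho 0.94). The ratio of their raw counts was 2.14, 2.29 and 2.09 in 4'-BR samples, against 2.25, 2.24 and 2.26 in Control samples. The pair was singled out by this search, so the narrow ratio is a description. The next most similar were Thbd, thrombomodulin, for Tgfbr1 (r = 0.95) and Casp8, the initiator caspase of death receptors, for Smad4 (r = 0.96). Tgfb1 was most like Itga4, an integrin chain of leukocytes (r = 0.92), and Casp8 (r = 0.90). Tgfb2 was most like Crebbp, a coactivator of Smads and of CREB (r = 0.95), and Cd38 (r = 0.95). Tgfb3 was most like Txnip (r = 0.99) and the interferon-γ receptor gene Ifngr1 (r = 0.98). For Tgfbr2 they were Tlr4, the lipopolysaccharide receptor (r = 0.98), and the transcription factor gene Mef2c (r = 0.97). For Smad3 they were complement C3 (r = 0.99) and Ifitm1 (r = 0.98), and for Smad2 G6pdx (r = 0.94), itself one of the 20 housekeeping probes used for scaling, and the receptor kinase gene Erbb2 (r = 0.87). Smad2 ran against the others: its r with each of the other 7 genes was negative, from -0.60 with Smad3 to -0.28 with Tgfbr1.

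Of 8 measured genes for ligand release and co-reception, all 8 tested, 3 fell and 0 rose, beside 5.66% and 1.28% of all tested genes, and the median was -0.48 beside -0.04 over all genes. Thbs1, thrombospondin-1, an activator of latent TGF-β, averaged 679 ± 89.2 scaled counts in 4'-BR and 1121 ± 88.9 in Control samples (log2 fold change -0.72, SE 0.16, edgeR adjusted p = 0.0387). Itgb1, the integrin β1 chain, averaged 1205 ± 220 and 1972 ± 176 (-0.71, adjusted p = 0.0431, but 0.0518 with total count scaling and 0.055 with the replicate number as a block). Plau, the urokinase that activates plasmin, averaged 257 ± 10.6 and 472 ± 89.5 (-0.87, adjusted p = 0.0387). In all 3 the 4'-BR samples lay below every Control sample. Not past the threshold were Nrp1 at -0.49, Itgb3 at -0.46, Eng, the endothelial co-receptor endoglin, at -0.34, Plaur at -0.32 and Mmp9 at 0.38. The 3 calls were lost in the fits without Control 1, Control 2 or any one of the 4'-BR samples, where 0 passed, and 2 passed without Control 3. All 3 were also lost in each limma fit (adjusted p from 0.065 to 0.101).

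Downstream of the receptors, 0 of 17 tested partners, kinases and transcription factors passed in edgeR, beside 38 (6.93%) of all 548 tested genes. The list's median was -0.04, beside -0.04 over all genes. At an unadjusted p under 0.05 there were 4, beside 23.4% of all tested genes. Those that passed in DESeq2 were 2, beside 69 of all 548 tested genes. In limma 0 passed, beside 9 of all 548 on log2 scaled counts. The 2 of lowest p were Creb1 (243 ± 44.0 in 4'-BR and 373 ± 42.5 in Control samples, log2 fold change -0.61, adjusted p = 0.072) and Fos (308 ± 80.2 and 719 ± 499, -1.21, adjusted p = 0.111), which were the 2 that passed in DESeq2 (adjusted p = 0.0431 and 0.0197). Fos stood at 399, 275 and 249.5 scaled counts in 4'-BR samples, against 446, 416 and 1294 in Control samples, and without Control 3 its edgeR log2 fold change was -0.48 (adjusted p = 0.292). Under 0.05 was also the kinase gene Mapk14 at 0.44. The coactivators Ep300 and Crebbp, at -0.04 and -0.15, and Map3k7 and Tab1, the TAK1 kinase of the non-Smad branch and its binding partner, at -0.19 and 0.20, were close to 0.

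Among 13 tested genes known to be induced or repressed by TGF-β in some cell type, 4 fell and 1 rose. All tested genes gave 5.66% and 1.28%, and the list's median was -0.17 beside -0.04. The list pools induced and repressed genes, so its median and its split of signs do not measure pathway output. With no count minimum, which adds 3 low genes, the list's median was 0.16. The falls were led by Fn1, fibronectin, at 661 ± 35.2 scaled counts in 4'-BR and 2059 ± 452 in Control samples (log2 fold change -1.64, SE 0.19, adjusted p = 0.00422). The fibrillar collagen genes Col3a1 (-1.22) and Col1a1 (-0.86) followed, and Thbs1, counted above, is itself such a target. The rise was that of Myc, at 673 ± 59.7 and 389 ± 29.2 (0.79, adjusted p = 0.0356, and 0.17 with positive control scaling, adjusted p = 0.584). The 3 low genes are Foxp3, Il11 and Nos2, and Il11 lay near the negative probes. The epithelial cadherin gene Cdh1, at 0.51, missed the threshold (adjusted p = 0.0799) but passed in DESeq2 (adjusted p = 0.0391) and with total count scaling (adjusted p = 0.0474). Snai1 was at -0.45, Itgae at 0.54, Twist1 at 0.31, Vim at 0.26, Vegfa at 0.25 and Cdkn1a at -0.17, none past the threshold. Of the 13 tested, 6 fold changes were positive and 7 negative. Without single samples the 5 calls numbered 5 without Control 3, 1 without Control 1, Control 2 or 4'-BR 3, and 0 without 4'-BR 1 or 4'-BR 2. In each limma fit only Fn1 passed. The difference between these targets and the 8 core genes was not tested.

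**Figure D3:**
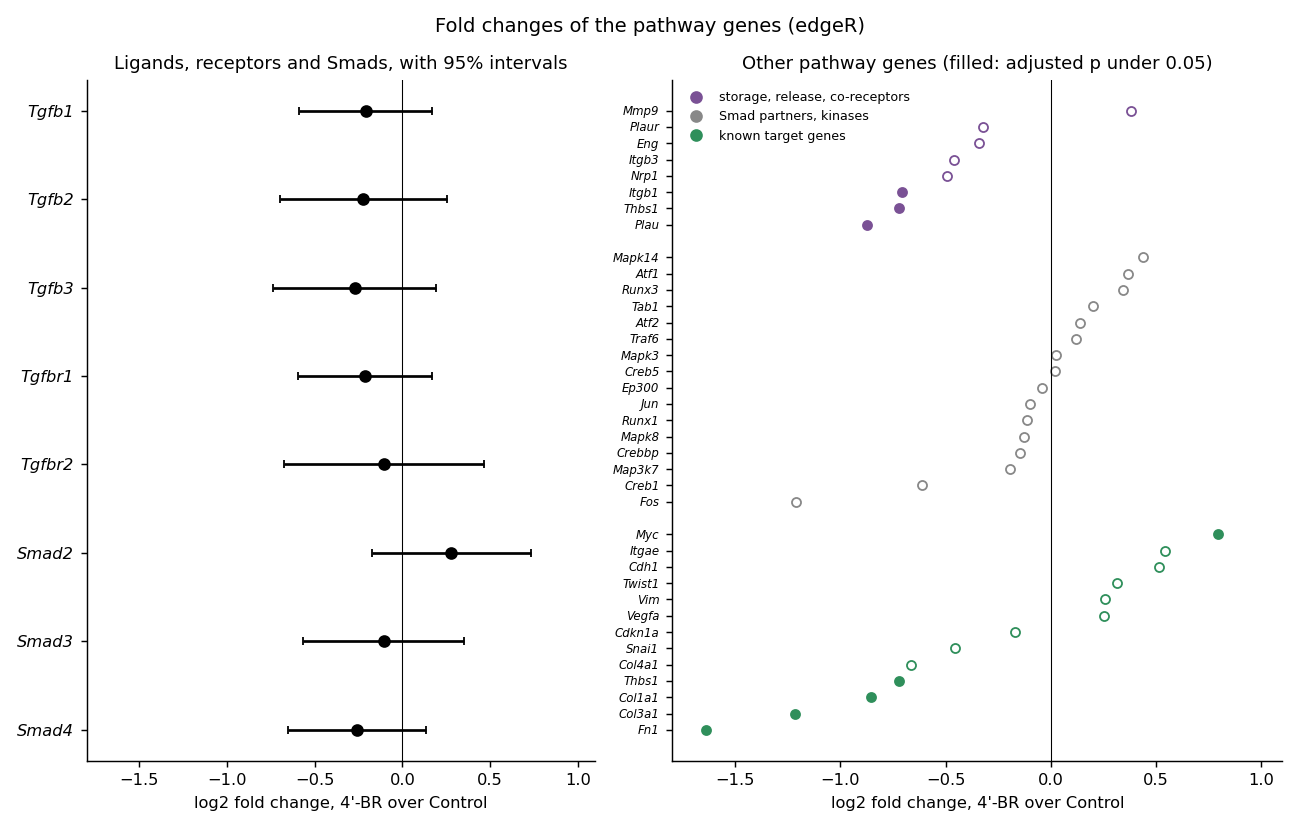
Log2 fold change of 4'-BR over Control (horizontal axes) for the 8 ligand, receptor and Smad genes with 95% intervals, on the left, and for tested genes of 3 other pathway lists, on the right, where filled points passed at an adjusted p under 0.05. All 8 intervals on the left include 0, and the filled points on the right run from Fn1 at -1.64 to Myc at 0.79.

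Marker lists of other cell types were counted in the same way, beside 5.66% of all tested genes that fell and 1.28% that rose. Of 5 fibroblast markers 3 fell (Fap, Col1a1 and Col3a1, both collagens being counted as targets as well), and the summed level of the 5 was 9630 to 14706 scaled counts in 4'-BR samples and 21649 to 29449 in Control samples. That sum is mostly the 2 collagens, with Col1a1 at 10016 and Col3a1 at 17757 of the 29449 in Control 1. Pdgfrb, at -0.70, and Thy1, at -0.57, did not pass in edgeR. Of 9 macrophage markers 4 fell (Mrc1, Itgam, C1qa and C1qb, but not the abundant Csf1r at -0.53), with sums of 1367 to 1889 in 4'-BR and 2358 to 3009 in Control samples. Among 3 neutrophil markers S100a8 fell and Csf3r, at -1.19, did not pass, with sums of 1157 to 1885 in 4'-BR and 2864 to 4654 in Control samples. Nearly all of these sums was S100a8, at 4619 of the 4654 in Control 1. Of 6 keratinocyte and epithelial markers 2 rose (Itgb4 and Ccl27a), with sums of 4651 to 5390 in 4'-BR and 3357 to 3867 in Control samples. These calls were not stable: in limma 0 of the fibroblast, neutrophil and epithelial calls and at most 1 of the macrophage calls (Itgam) passed. Without Control 1 or any one of the 4'-BR samples 0 passed in each of the 4 lists, and without Control 2 only S100a8 did. With the replicate block Mrc1 and both epithelial rises were lost, and with positive control scaling both rises were lost. None of 7 endothelial markers (Mcam -0.59, Eng -0.34), 7 T cell markers (Cd3g 0.69, Cd3d 0.58) or 2 melanocyte markers passed in edgeR, nor did the 1 tested platelet marker (Itgb3). At an unadjusted p under 0.05 these lists held 1, 1, 0 and 0 genes, beside 23.4% of all tested genes. None of their genes passed in DESeq2, beside 69 of all 548, or in limma, beside 9 on log2 scaled counts. The endothelial receptor gene Tie1 passed with TMM scaling (-0.69, adjusted p = 0.0448), where 38 of all 548 tested genes passed as lower. With positive control scaling 4 of 7 endothelial, 0 of 7 T cell, 1 of 2 melanocyte and the 1 platelet marker passed as lower. That stands beside 44.3% of all tested genes under the same scaling. Cd8a and Cd8b1 lay near the negative probes. The part of these shifts in the values above was not tested.

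The fold changes of the 8 genes depended on the scaling as a block. Scaling by the positive control probes, spiked synthetic RNA of set amounts, leaves the difference in total signal between the groups in place. With it all 8 were negative and 7 passed as lower, at -0.77 to -0.92 (adjusted p from 0.00762 to 0.0323). Under that scaling 44.3% of all tested genes passed as lower (44.5% in either direction) and the median of all genes was -0.67. Relative to the median of all genes, the median of the 8 was at -0.18 with positive control scaling and at -0.17 with housekeeping scaling. Smad2 turned to -0.32 with positive control scaling, and Tgfbr2 and Smad3 turned to 0.021 and 0.047 with total count scaling, which put the all-gene median at 0.12.

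**Figure D4:**
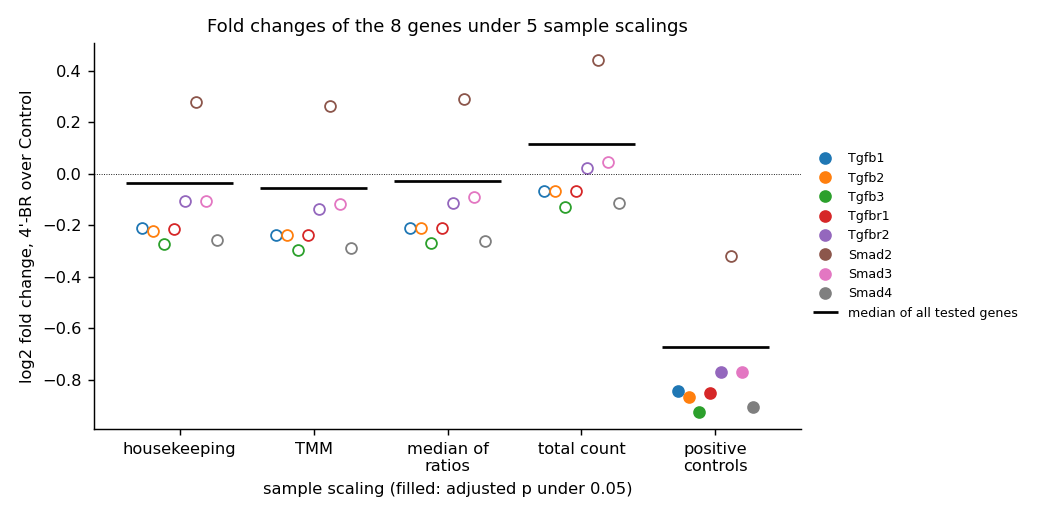
Log2 fold change of 4'-BR over Control (vertical axis) for each of the 8 genes under 5 ways of scaling samples (horizontal axis), with the median of all tested genes as a black line and filled points for an adjusted p under 0.05. Smad2 lies above the median line and the other 7 below it under each of the 5, and the 7 filled points are all at positive control scaling.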

How the data were processed

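RNA of 6 tumour samples was counted with nCounter on a mouse cancer immunology panel, in NanoString's laboratories per the labels. The deposited raw table gives barcode counts, per the file headers, for 750 endogenous, 20 housekeeping, 6 positive and 8 negative probes (the labels count more genes as housekeeping). The authors' series table gives normalized values (treated as a score): all 770 per sample were raw count times a sample factor to within 1, in proportion to the housekeeping factor. The labels name no software or build. The full genotype and 1 gene of the signalling list are not reported here.

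Groups and replicate numbers came from the titles. Raw counts were fitted with edgeR 4.0.16 in R 4.3.3 (glmQLFit, glmQLFTest) with housekeeping geometric mean scaling, for genes averaging at least 20 raw counts. P-values are two-sided, Benjamini-Hochberg adjusted over 548 genes, threshold 0.05. SEs were derived from the F statistic. Scaled counts are mean ± SD. limma 3.58.1 used log2(scaled count + 1), and DESeq2 1.42.0 the same size factors. Poisson intervals and negative-probe limits cover counting error only. The 20 simulated data sets used each gene's mean scaled count over all samples, the housekeeping sample factors and a single common dispersion of 0.0457. In them a mean of 543 genes was tested and 200 were changed, against 38 of 548 called in the real samples. The edgeR comparison called 33.4% of 1.5-fold changes, 81.2% at 2-fold and 99.1% at 3-fold. Recovery with gene-specific spread or fewer changed genes was not tested, so these percentages are not estimates for any gene described here.

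The genes and the lists were chosen with earlier results of these data known. Named were the 8 genes, from each list every gene past the threshold and the 2 of lowest p, for each of the 8 the 2 genes of highest r, and from each marker list every gene past the threshold and the 2 of highest count; other names were chosen after their values were seen. One more list, of other TGF-β superfamily ligands and receptors (23 names), matched 0 genes of the panel table. Transcript identifiers of the 8 matched RefSeq (GRCm38.p6), which was used for names and for promoter sequence. Smad2 and Smad4 promoters are not shown, and none was available for Tgfb3. Same-numbered samples of both groups did not deviate together in every pair (r = -0.08, 0.08 and 0.21), so the numbers were not taken as pairs. Alternatives were 4 other scalings, no count minimum or one of 50, DESeq2, limma, background subtraction, the deposited scores, a replicate block and leaving out each sample.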

Additional observations from a re-analysis of the deposited data

How the results depend on the processing

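The count of 0 of the 8 genes past the threshold held in 16 of the 17 alternatives and was 7 with positive control scaling, where their median moved to -0.85; leaving out single samples gave 0 each time and medians of -0.32 to -0.12. Tgfb1, Tgfb2, Tgfb3, Tgfbr1 and Smad4 stayed negative in all 17. Tgfbr2 turned to 0.021 with total count scaling and, without single samples, ranged from -0.37 to 0.15 (positive without 4'-BR 3), Smad3 to 0.047 with total count scaling and, without single samples, ranged from -0.25 to 0.10 (positive without Control 2), and Smad2 to -0.32 with positive control scaling. The count over all genes (38) was 60 with total count scaling (30 higher and 30 lower, against 7 and 31), 16 and 38 with TMM, 17 and 37 with median of ratios, 244 with positive controls (1 and 243), 69 in DESeq2, 9 in limma, 3 after background subtraction in limma and 9 from the deposited scores. Without single samples it was 0 (without 4'-BR 1 or 4'-BR 2, with 107 and 117 genes at an unadjusted p under 0.05) to 36. With the replicate block 30 genes and 0 of the 8 passed. Counts for the lists were added after the data were seen. Of the release genes (3), 7 of 8 passed with positive controls, beside 44.5% of all tested genes. In each limma fit 0 of them passed, and without single samples 0 to 2. Of the signalling genes (0), 10 of 17 passed with positive controls, and 1 with total count scaling, beside 60 of all 548 genes there. In DESeq2 2 of them passed, beside 69 of 548, and without any single sample 0. Of the target genes (5), 7 of 13 passed as lower with positive controls. With total count scaling and in DESeq2, 2 of these passed as higher and 4 as lower. In each limma fit 1 of them passed, and without single samples 0 to 5. Log2 ratios without single samples ranged from 0.41 to 0.79 for Smad2/Smad4, -0.68 to -0.16 for Smad3/Smad2, -0.054 to 0.38 for Smad3/Smad4, -0.11 to 0.30 for Tgfbr2/Tgfbr1, -0.12 to 0.17 for Tgfb2/Tgfb1, -0.22 to 0.069 for Tgfb3/Tgfb1 and -0.17 to 0.10 for Tgfb3/Tgfb2; pairing same-numbered samples left each ratio difference as it was by construction. The cause of these shifts was not tested, except that each fit without a sample has fewer samples. Lower totals in 4'-BR samples make their counts, above all those of Tgfb2, less precise.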
